A study of Mus musculus with 5 samples.

Results

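The 9 mouse paired box genes Pax1 to Pax9 were examined for peaks of the histone mark H2AK119ub and of the protein RYBP in embryonic stem cells with and without the RNA helicase DDX5. A peak was assigned to a gene when it overlapped the gene body or the 2 kb on either side by at least 1 bp. All 9 genes were found among the 21627 protein-coding genes on chromosomes 1 to 19 and X. They held 75 of the 20994 H2AK119ub peaks of DDX5-/- cells, 74 of the 24235 H2AK119ub peaks of wild-type cells and 24 of the 9564 RYBP peaks of wild-type cells.

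The cells were of the embryonic stem cell line MPI-II, kept on feeder cells with serum, LIF and inhibitors of MEK (PD0325901) and GSK3 (CH99021). The DDX5 knock-out line was monoclonal, made with a SpCas9 nickase and paired guides against exon 2 of Ddx5, and its comparison was the wild-type line in the same medium. Chromatin immunoprecipitation and sequencing (ChIP-seq) gave 1 H2AK119ub library from DDX5-/- cells, 1 H2AK119ub library from wild-type cells and 1 RYBP library from wild-type cells, the last with an antibody against DEDAF, another name of RYBP. The 2 input libraries were not analysed here. Because each group is a single library, differences could not be set against replicate error, and no test was made. The deposited lists hold peak positions without heights, so read depth is unknown, and a difference in depth or enrichment between libraries cannot be told apart from a difference between genotypes. Ddx5 itself had no H2AK119ub peak over its body and 2 kb flanks in either genotype and 1 RYBP peak in wild-type cells, which does not check the genotype labels. Of 5 stem cell genes, Pou5f1, Nanog, Sox2 and Zfp42 had no peak in any library, while Esrrb had 8525 bp of H2AK119ub in DDX5-/- cells and 31314 bp in wild-type cells. H2AK119ub was absent in both genotypes at 69.1% of all protein-coding genes. Of 5 fibroblast genes, as a feeder cell marker list, 3 carried H2AK119ub in both genotypes, against 20.7% of all protein-coding genes. Peaks give no expression, so these lists do not check the cell type.

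Pax genes encode transcription factors that bind DNA through a paired domain and direct the formation of organs and cell lineages. They fall into 4 subgroups by structure: Pax1 and Pax9 lack a homeodomain, Pax2, Pax5 and Pax8 keep part of one, and Pax3 and Pax7, like Pax4 and Pax6, have a complete one. In embryonic stem cells most such lineage regulators are silent and are classic targets of the Polycomb system. Polycomb repressive complex 1 attaches ubiquitin to a lysine of histone H2A, which gives the mark measured here, and RYBP belongs to variant versions of this complex that occupy CpG islands.

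The set of RefSeq starts used here (GRCm38.p6, the assembly that mm10 is built on) held 10 start sites for 7 of the genes. It held no entry for Pax3 or Pax4, so no start was used for them. The 250 bases before 5 of these starts are shown as examples, with every CG pair in capitals. Start 3 of Pax2 and both starts of Pax6 lay within peaks of all 3 libraries. So did the starts of Pax7 and Pax9 and the other starts of Pax2, which are not shown. The start of Pax5, under H2AK119ub in both genotypes without RYBP, is not shown either. The start of Pax1 lay under RYBP, in an interval between H2AK119ub peaks in both genotypes. The start of Pax8 had no RYBP and was covered by H2AK119ub in wild-type cells alone.
Pax2, start 3 (chr19:44756656-44756905, plus strand): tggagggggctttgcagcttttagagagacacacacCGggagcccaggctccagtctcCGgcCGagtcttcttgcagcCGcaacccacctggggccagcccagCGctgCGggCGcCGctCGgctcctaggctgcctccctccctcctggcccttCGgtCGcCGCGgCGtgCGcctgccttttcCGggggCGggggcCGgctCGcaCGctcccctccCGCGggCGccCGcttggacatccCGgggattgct
Pax6, start 1 (chr2:105668646-105668895, plus strand): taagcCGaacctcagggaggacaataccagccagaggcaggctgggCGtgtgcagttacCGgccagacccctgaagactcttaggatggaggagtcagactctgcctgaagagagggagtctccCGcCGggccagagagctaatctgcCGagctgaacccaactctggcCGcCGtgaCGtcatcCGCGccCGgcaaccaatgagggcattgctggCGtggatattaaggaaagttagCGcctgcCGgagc
Pax6, start 2 (chr2:105682213-105682462, plus strand): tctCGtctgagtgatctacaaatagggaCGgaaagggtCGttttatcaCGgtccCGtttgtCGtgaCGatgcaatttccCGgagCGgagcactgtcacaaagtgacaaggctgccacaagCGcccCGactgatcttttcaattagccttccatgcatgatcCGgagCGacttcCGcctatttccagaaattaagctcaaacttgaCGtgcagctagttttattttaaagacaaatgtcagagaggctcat
Pax1 (chr2:147364744-147364993, plus strand): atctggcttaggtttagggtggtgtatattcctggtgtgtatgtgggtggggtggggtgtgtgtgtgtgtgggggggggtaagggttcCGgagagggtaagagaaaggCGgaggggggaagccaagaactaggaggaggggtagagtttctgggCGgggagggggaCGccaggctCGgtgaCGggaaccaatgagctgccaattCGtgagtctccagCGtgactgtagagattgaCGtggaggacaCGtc
Pax8 (chr2:24475600-24475849, minus strand): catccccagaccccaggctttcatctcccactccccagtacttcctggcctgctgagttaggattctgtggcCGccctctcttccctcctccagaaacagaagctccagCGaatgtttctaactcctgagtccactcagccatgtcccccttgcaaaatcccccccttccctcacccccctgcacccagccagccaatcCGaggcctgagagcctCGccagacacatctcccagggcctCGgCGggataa

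These 5 sequences held 25, 15, 15, 10 and 6 CG pairs in the order shown. The remaining starts had 5 and 20 (starts 1 and 2 of Pax2), 19 (Pax5), 13 (Pax7) and 7 (Pax9). Over 21044 listed starts of protein-coding genes the median was 10 (quartiles 3 and 19). That median was 19 where a RYBP peak touched the 300 bp around the start and 5 where none did. Among the Pax starts, start 1 of Pax2 and the start of Pax9, with 5 and 7 CG pairs, were covered by RYBP over all 300 bp, and the start of Pax5, with 19, was not covered. Neither CACGTG nor GCGGGAA, searched on both strands, was present before any of the 10 starts. They were present before 6.70% and 5.01% of all listed starts. CCGCGG occurred before start 3 of Pax2 alone, at 2 places, and before 12.0% of all starts. The start base itself was covered by H2AK119ub at 8 of the 10 Pax starts in DDX5-/- cells, where 5.90% of all listed starts were covered, and at 9 in wild-type cells, where 7.79% were. RYBP covered 8 of the 10, against 28.4% of all listed starts.

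All 9 Pax genes had an H2AK119ub peak in DDX5-/- cells and 8 of 9 had one in wild-type cells. Among all protein-coding genes, 23.6% had such a peak in DDX5-/- cells and 27.9% in wild-type cells. RYBP was present at 7 of the 9, against 37.6% of all genes. A peak in all 3 libraries was found at 7 Pax genes, against 15.7% of all genes, and those were Pax1, Pax2, Pax3, Pax5, Pax6, Pax7 and Pax9. Pax8 had the mark in both genotypes without RYBP. Pax4 was the single member marked in the knockout alone, as 3.00% of all genes were. No member was marked in the wild type alone, as 7.20% of all genes were. A longer gene offers more room for a peak, and the median Pax gene spanned 55049 bp, compared with 17330 bp for all protein-coding genes. With windows of 2 kb around the 2 gene ends alone, which hold the length nearly fixed, the same counts of 9, 8 and 7 genes were obtained, against 19.9%, 24.3% and 34.2% of all genes.

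**Figure D1:**
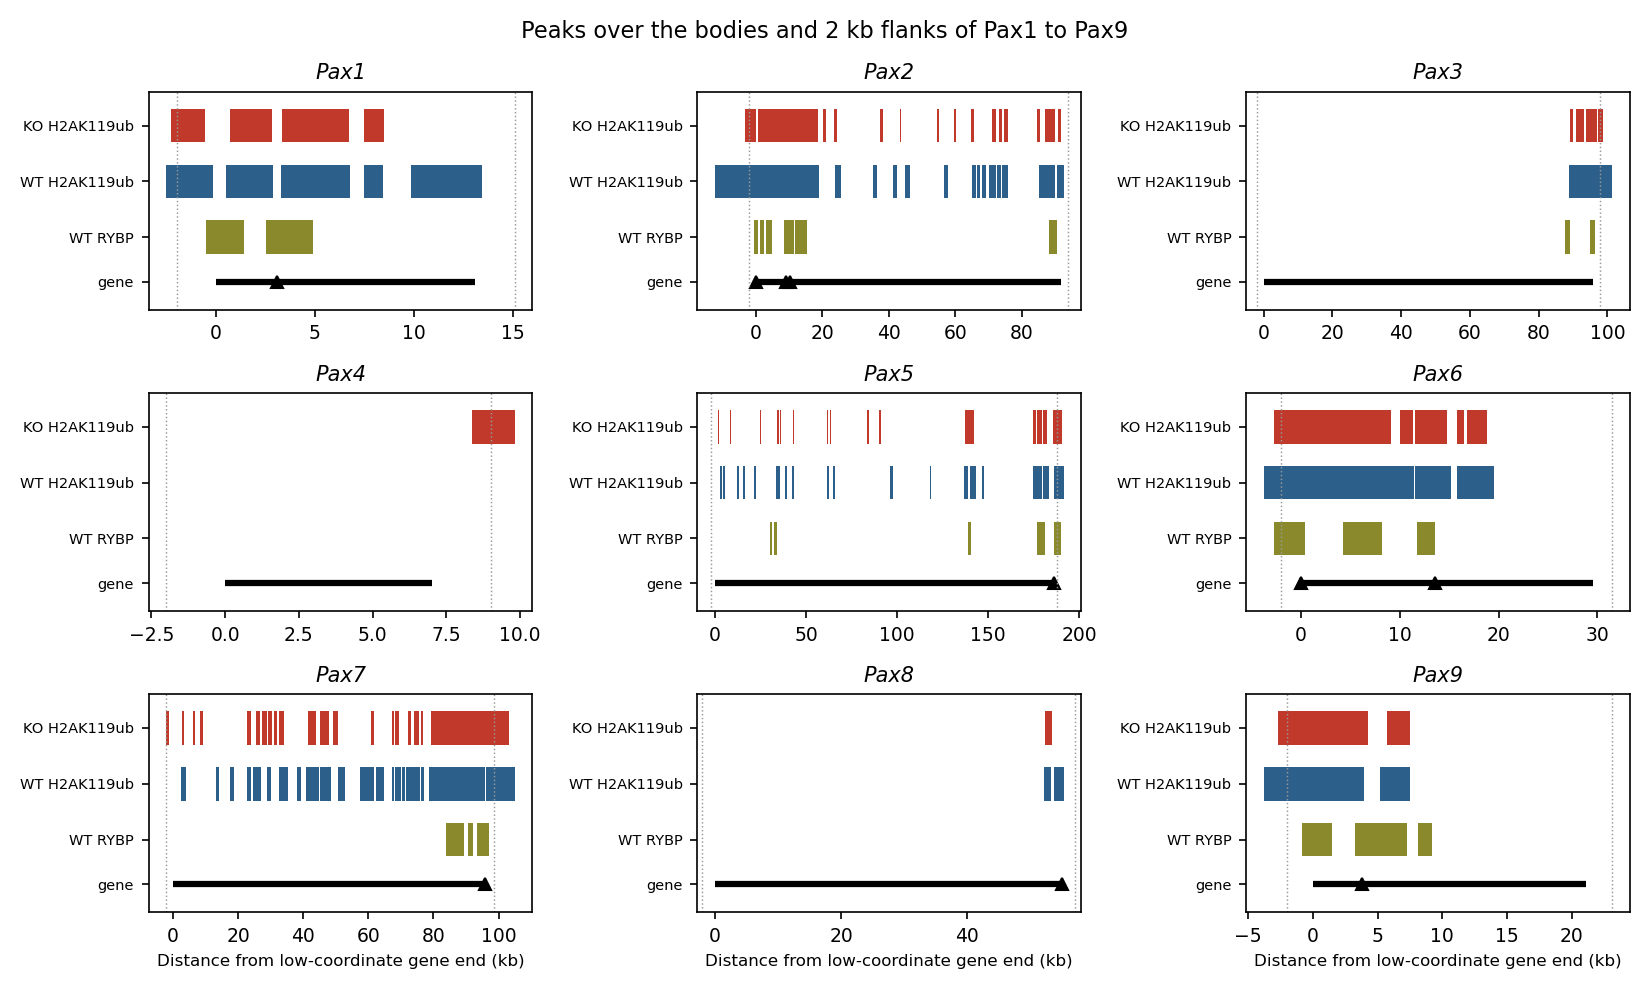
Position of H2AK119ub peaks in knockout (red) and wild-type (blue) cells and of RYBP peaks in wild-type cells (olive) at each Pax gene, against distance in kb from the gene's low-coordinate end. The black bar is the gene, triangles are the 10 listed RefSeq starts used here, and dotted lines bound the 2 kb flanks. The widest H2AK119ub peaks lay at or near the starts. Most H2AK119ub peaks lay more than 5 kb from a listed start, many of them narrow peaks along Pax2, Pax5 and Pax7.

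Summed over the 9 windows, H2AK119ub covered 139.6 kb in DDX5-/- cells and 184.8 kb in wild-type cells. The ratio of knockout to wild-type length was thus 0.755, against 0.667 over all protein-coding genes. Of the wild-type length at Pax genes, 64.9% was also covered in the knockout, compared with 49.2% over all genes. The bases common to both libraries came to 119.9 kb, those in the knockout alone to 19.7 kb and those in the wild type alone to 64.9 kb. Per gene, the covered length was shorter in the knockout at each of the 8 Pax genes marked in both genotypes. With windows of 2 kb around the gene ends alone this order turned at Pax5, with 2373 bp in the knockout and 2057 bp in the wild type, and at Pax7, with 4837 and 3937 bp. These knockout lengths include part of a narrow peak at the end far from the start, 769 bp wide at Pax5 and 998 bp wide at Pax7. No wild-type peak lay in the windows at those far ends. At Pax5 the knockout peak over the start also reached further into the gene, to 44710533 against 44710638 in the wild type. The order at Pax5 thus turned at the start as well. Pax6 and Pax9 had 4001 bp in both, which is a single end window filled completely, so a difference could not show there. Over the whole windows a shorter cover in the knockout was found at 78.6% of the 4466 protein-coding genes marked in both, so this direction was that of most genes. The median ratio was 0.741 for the 8 Pax genes (quartiles 0.689 and 0.829) and 0.718 for all genes marked in both (quartiles 0.487 and 0.962). Pax genes thus lay near the middle of the distribution, with Pax8 well below it and Pax9 at its upper part.

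**Figure D2:**
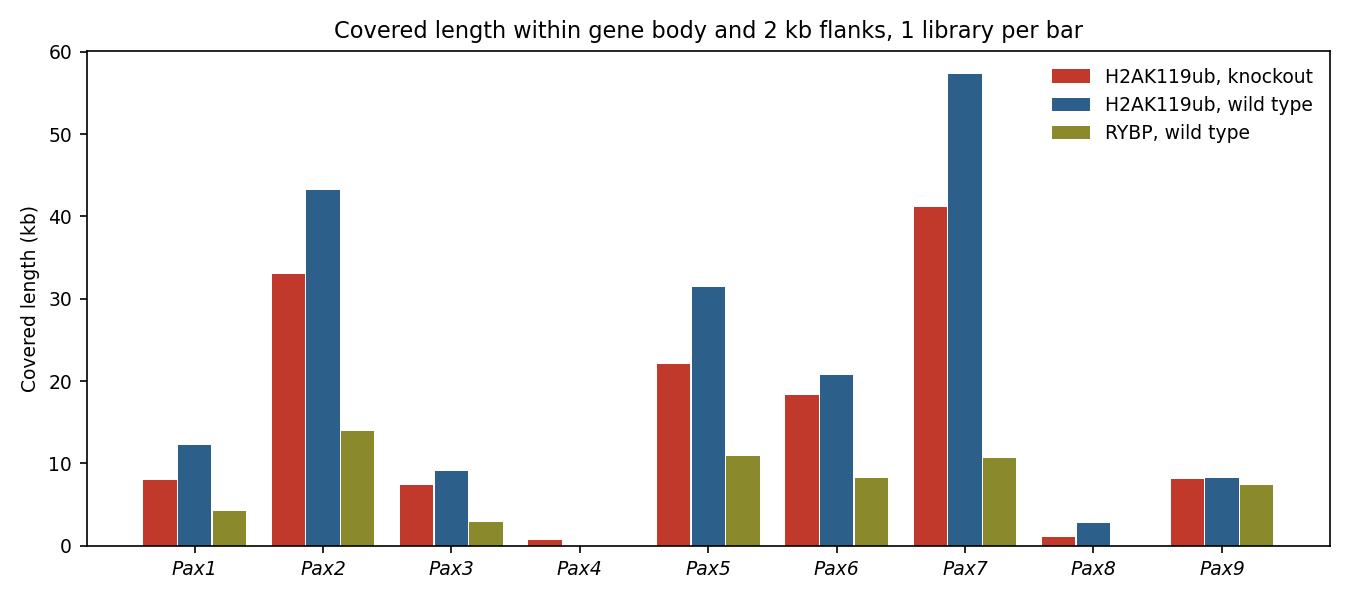
Length in kb covered by peaks within the gene body and 2 kb flanks of each Pax gene, with 1 library per bar: H2AK119ub in knockout cells, H2AK119ub in wild-type cells and RYBP in wild-type cells. Pax7 had the longest H2AK119ub cover and Pax2 the longest RYBP cover, and Pax4 had 645 bp of knockout H2AK119ub alone.

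Pax3 and Pax7 specify the neural crest and the skeletal muscle lineage, Pax7 also the satellite cells of adult muscle. Pax7 (chromosome 4, 139737059 to 139833530, gene ID 18509) had the longest cover of the mark. Its H2AK119ub peaks covered 41147 bp in 23 peaks in DDX5-/- cells and 57268 bp in 25 peaks in wild-type cells, a ratio of 0.718. By covered length it ranked 36th of the 5114 genes with the mark in the knockout and 32nd of 6024 in the wild type. By the share of its window covered, 41.0% in the knockout and 57.0% in the wild type, it ranked 775th and 784th, and the shares were higher at Pax6 and Pax1 in both genotypes. Both libraries had a wide domain over its start. In DDX5-/- cells it consisted of adjoining peaks of 14905 and 7161 bp, the first of which was the 13th widest of that library. In wild-type cells its main peaks were 13547 and 9007 bp wide. The 3 RYBP peaks of Pax7, 5532, 1386 and 3675 bp wide, all lay in this domain, and 99.4% of their length was under the wild-type mark. Over the remaining gene body the mark was a chain of mostly narrow peaks. Of the 25 wild-type peaks, 18 were overlapped by a knockout peak, 72.0%, against 48.9% of all wild-type peaks. The 7 that were not were 837 to 2093 bp wide.

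Pax3 (chromosome 1, 78101267 to 78197136, gene ID 18505) is nearly as long as Pax7 and had the mark at its high-coordinate end alone. It had 4 knockout peaks covering 7374 bp of its window and 2 wild-type peaks covering 9097 bp, a ratio of 0.811. Every covered base of the knockout was also covered in the wild type. The wild-type peaks, 4345 and 8322 bp wide almost touching, stood where the knockout had 4 peaks of 1088, 2302, 3350 and 1512 bp. A RYBP peak of 1395 bp lay across the edge of this domain and one of 1474 bp inside it, and 64.7% of their length lay under the wild-type mark.

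Pax2, a regulator of kidney, optic nerve and midbrain-hindbrain development, Pax5, which commits cells to the B lymphocyte lineage, and Pax8, required for the thyroid follicle, form the next subgroup. Pax2 (chromosome 19, 44746601 to 44838269, gene ID 18504) had 17 knockout peaks covering 32974 bp and 15 wild-type peaks covering 43190 bp, a ratio of 0.763. Its 3 listed starts lay under the mark in both genotypes. The wild-type peaks at this end were 13027 and 18218 bp wide, and the larger was the 31st widest of its library. Knockout peaks covered 17707 bp of the larger one, as 3 separate peaks. RYBP covered 13914 bp, the 9th longest cover of 8138 genes with RYBP and, at 14.5% of its window, the 1827th by share. Of this length 96.2% lay under the wild-type mark. RYBP and the mark also met near the far end of Pax2, where a RYBP peak of 2487 bp met a wild-type H2AK119ub peak of 4789 bp and a knockout peak of 2999 bp.

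Pax5 (chromosome 4, 44524748 to 44710694, gene ID 18507), the longest member, had 16 knockout peaks covering 22065 bp and 18 wild-type peaks covering 31487 bp, a ratio of 0.701. Its positions were less alike than those of Pax2 or Pax7. In all 47.9% of the wild-type length was covered in the knockout, near the 49.2% over all protein-coding genes. Of the 18 wild-type peaks, 10 had no knockout counterpart and 8 did, 44.4%, against 48.9% of all wild-type peaks. Of the 16 knockout peaks, 6 had no wild-type counterpart and 10 did, 62.5%, against 66.5% of all knockout peaks. By these shares Pax5 was close to the general case. The 10 wild-type and 6 knockout peaks without a counterpart were narrow, at most 1445 and 1219 bp wide. All of them lay more than 5 kb from the start. The peak over the start was 4608 bp wide in the knockout and 5449 bp wide in the wild type. RYBP began 356 bp before the start and ran for 3847 bp away from the gene, entirely within the mark of both genotypes. Its widest peak at Pax5, 4476 bp, lay inside the gene with its near edge 4982 bp from the start, and it was mostly under the mark. Of the RYBP peaks deeper in the gene, 1 of 1089 bp had no H2AK119ub in either genotype, and 1 of 1570 bp had none in the knockout and 704 bp in the wild type.

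Pax8 (chromosome 2, 24420551 to 24475599, gene ID 18510) had the least mark of the subgroup, 1025 bp in 1 knockout peak and 2707 bp in 2 wild-type peaks. Its ratio of 0.379 was the lowest of the 8 with the 2 kb flanks. With a flank of 5 kb Pax8 had 1781 bp in the knockout and 2707 bp in the wild type. Pax1 then had 8216 and 12720 bp, so the ratio of Pax8 was no longer the lowest. The wild-type peak missing from the knockout, 1516 bp from 24474298 to 24475813, covered the start, and the peak present in both libraries lay 1672 bp away from the start in the knockout and 1722 bp away in the wild type. No RYBP peak was present.

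Pax6, the eye and forebrain regulator, and Pax4, which acts in pancreatic beta cell formation, form another subgroup. Pax6 (chromosome 2, 105668896 to 105698410, gene ID 18508) had 6 knockout peaks covering 18278 bp and 5 wild-type peaks covering 20715 bp, a ratio of 0.882. The mark thus lay over 54.5% of its window in the knockout and 61.8% in the wild type. All but 19 bp of the knockout cover was also wild-type cover. Around its first start the widest peak was 11767 bp in the knockout, the 37th widest there, and 10754 bp in the wild type, the 162nd widest. RYBP peaks of 3123, 3986 and 1867 bp lay within the mark almost entirely, 8256 of 8259 bp in the wild type. Pax4 (chromosome 6, 28442334 to 28449340, gene ID 18506) had no wild-type H2AK119ub and no RYBP. Its 1 knockout peak, 28450696 to 28452161, began beyond the high-coordinate gene end and reached 645 bp into the 2 kb flank. With a flank of 1 kb or none, Pax4 had no peak in any library. It was the 1 member on chromosome 6, the chromosome where gene windows as a whole had more mark in the knockout, with a ratio of 1.28. The part of the chromosome in the Pax4 peak was not tested.

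Pax1 and Pax9 act in the sclerotome and the pharyngeal pouches, and Pax9 in the tooth and palate. Pax1 (chromosome 2, 147361930 to 147375049, gene ID 18503) had 4 knockout peaks covering 7957 bp and 5 wild-type peaks covering 12187 bp, a ratio of 0.653. Its first 4 wild-type peaks each had a knockout counterpart, and 48 bp of the knockout cover lay outside the wild-type mark. The fifth, 3558 bp wide at the high-coordinate end, had none, and it was the widest wild-type peak at a Pax gene without a knockout counterpart. RYBP peaks of 1911 and 2333 bp crossed the 2 intervals between the first 3 H2AK119ub peaks. Those intervals were 1253 and 503 bp long in the knockout, with 1222 and 503 bp under RYBP, and 664 and 423 bp long in the wild type, with RYBP over all of both.

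Pax9 (chromosome 12, 56691693 to 56712824, gene ID 18511) had 3 knockout peaks covering 8103 bp and 2 wild-type peaks covering 8181 bp, a ratio of 0.990. Its cover was the most alike between genotypes, with 93.9% of the wild-type length kept. RYBP covered 7430 bp in peaks of 2311, 4029 and 1090 bp, and the last of these had no H2AK119ub in either genotype. The middle RYBP peak crossed an interval in the mark of 1410 bp in the knockout and 1295 bp in the wild type, and both intervals were fully under RYBP.

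Each covered length can be set beside the ratio over the gene windows of its chromosome. Of the 8 genes marked in both genotypes, 7 had a higher ratio than their chromosome. The chromosome ratios also count genes marked in the wild type alone. The median ratio of 0.718 over all genes marked in both was likewise above that of each chromosome named here. The share of all such genes above their chromosome was not computed. Pax9 had 0.990 against 0.675 for chromosome 12, Pax3 0.811 against 0.619 for chromosome 1, and Pax2 0.763 against 0.599 for chromosome 19. On chromosome 4 the ratio was 0.582, below Pax5 and Pax7. On chromosome 2 it was 0.631, below Pax6 and Pax1 and above Pax8.

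**Figure D3:**
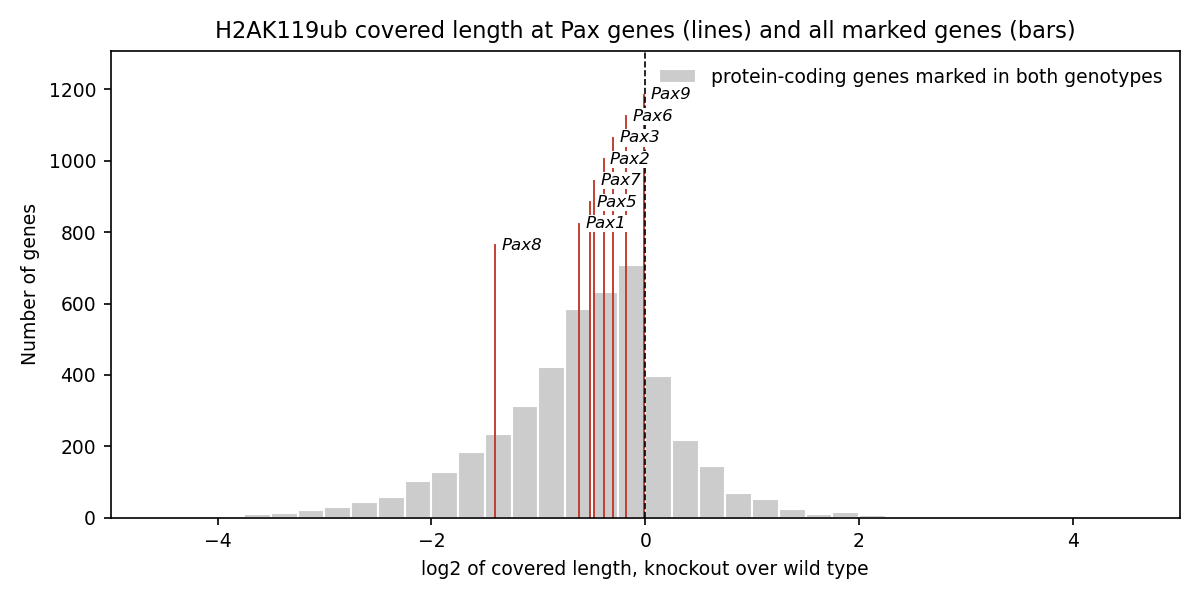
Distribution of the log2 ratio of H2AK119ub covered length, knockout over wild type, over the 4466 protein-coding genes marked in both genotypes (bars, number of genes), with the 8 Pax genes marked in both as red lines. All 8 lines lie at or left of 0, as do 78.6% of the genes. With the 2 kb flanks used here Pax8 lies apart from the other 7.

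Nearly all wild-type H2AK119ub peaks near the starts of Pax genes had a counterpart in the knockout, and about as many peaks along the gene bodies had one as had none. For the 7 genes with a listed start, 18 of 19 wild-type peaks whose near edge lay within 5 kb of a start were overlapped by a knockout peak, 94.7% (Wilson interval 75.4% to 99.1%), and 29 of 53 peaks further inside, 54.7% (41.5% to 67.3%). A similar split over all protein-coding genes with a listed start gave 60.4% (59.2% to 61.7%) and 45.3% (44.2% to 46.5%). For Pax peaks, here and below, distance was taken to the listed starts of the same gene. For the comparison over all genes it was taken to the nearest listed start of any such gene. By length, knockout peaks covered 87.9% of the peaks near Pax starts and 40.5% of those further inside, where the values over all genes were 57.3% and 40.6%. Peaks near the Pax starts were also wider, with a median of 3478 bp against 1336 bp further inside. When peaks narrower than 2 kb alone were taken, a choice made after seeing the data, 3 of 4 near a Pax start were overlapped (30.1% to 95.4%) and 15 of 37 further inside, 40.5% (26.3% to 56.5%). The shares of such peaks over all genes were 44.6% near a start and 34.2% further inside. Peaks of 1 gene are neighbours and not independent, and these 95% intervals cover counting error only.

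Over all 9 genes, 49 of 74 wild-type peaks were overlapped by a knockout peak, 66.2%, against 48.9% of all wild-type peaks. In the other direction, 57 of 75 knockout peaks were overlapped by a wild-type peak, 76.0%, against 66.5% of all knockout peaks. The 18 knockout peaks without a wild-type counterpart were distributed over Pax5 and Pax7 (6 each), Pax2 (5) and Pax4 (1), with a median width of 847.5 bp. None of the 17 at genes with a listed start lay within 5 kb of one. Of the knockout peaks of these genes, 22 of 22 near a start and 31 of 48 further inside, 64.6%, were overlapped in the wild type, where the shares over all genes were 78.1% and 64.4%. For the 25 wild-type peaks that no knockout peak overlapped the median width was 1239 bp, and 1 of them, at Pax8, lay within 5 kb of a start. Wild-type domains of at least 5 kb, 9 in number at 6 Pax genes, were all overlapped by knockout peaks, and 6 of them by at least 2. In the whole library 98.5% of such domains were overlapped, and 72.8% by at least 2, so breaking into several knockout peaks was the usual case for wide domains.

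**Figure D4:**
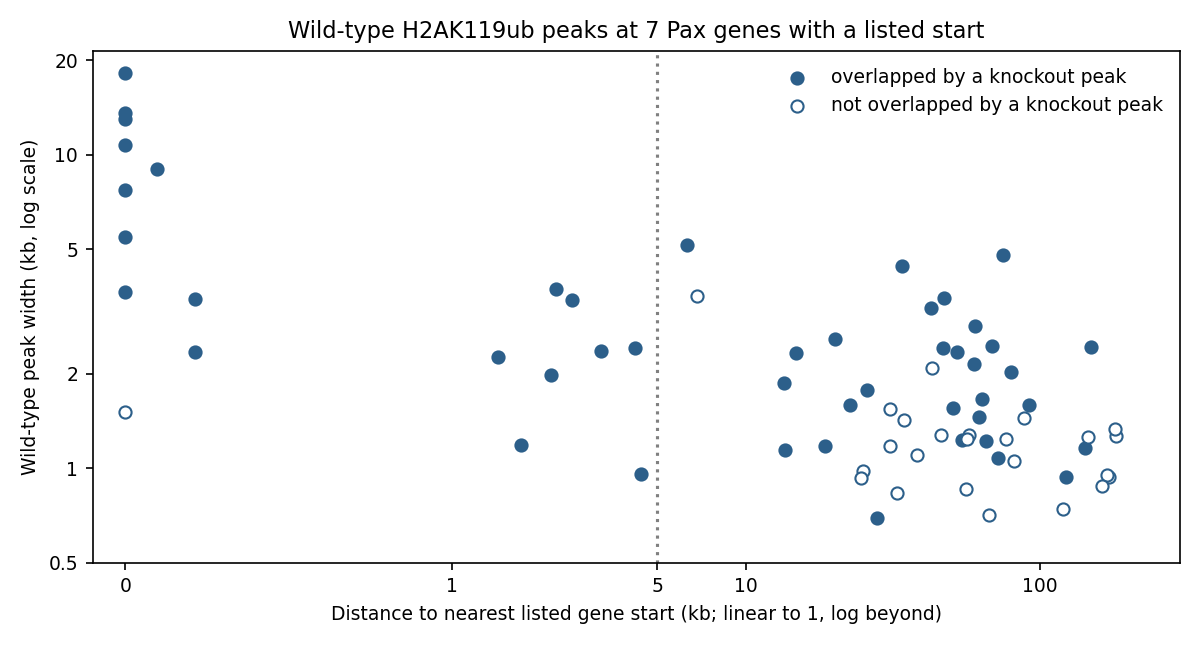
Width in kb (log axis) of each of the 72 wild-type H2AK119ub peaks at the 7 Pax genes with a listed start, against distance to the nearest listed start of the same gene in kb. Filled points were overlapped by a knockout peak and open points were not. Left of the dotted line at 5 kb 1 of 19 points is open, at Pax8, and right of it 24 of 53 are.

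RYBP at Pax genes lay mostly inside the marked domains. Of the 24 RYBP peaks, 21 were overlapped by knockout H2AK119ub, 87.5%, against 40.2% of all RYBP peaks, and 22 by wild-type H2AK119ub, 91.7%, against 46.4% of all RYBP peaks. By length, 86.0% of the RYBP cover at Pax genes was under the wild-type mark, where the share over all protein-coding genes was 36.6%. The reverse share was smaller: RYBP overlapped 21 of the 75 knockout peaks, 28.0%, against 22.4% of all knockout peaks, and 22 of the 74 wild-type peaks, 29.7%, against 21.8% of all wild-type peaks. The median width was 3997 bp for wild-type peaks with RYBP and 1272.5 bp for the others. RYBP overlapped 14 of the 19 wild-type peaks within 5 kb of a Pax start and 6 of the 53 further inside, 73.7% and 11.3%. Over all genes the shares were 49.4% and 10.2%, so the share further inside was close to that of genes in general. Among peaks narrower than 2 kb, a choice made after seeing the data, RYBP overlapped 0 of 4 near a Pax start and 0 of 37 further inside. Over all genes the shares of such peaks were 39.0% and 6.08%. The Wilson intervals of these Pax shares, 0 to 49.0% and 0 to 9.41%, include them. Intervals of at most 2 kb between neighbouring H2AK119ub peaks also held RYBP. At Pax genes 11 of 40 such intervals in the knockout and 9 of 37 in the wild type did, 27.5% and 24.3%, where the shares over the libraries were 18.6% and 16.8%. The Wilson intervals of the Pax shares, 16.1% to 42.8% and 13.4% to 40.1%, include the shares over the libraries.

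Among genes that work with Pax proteins, 67 partners and members of the same organ networks were listed, chosen with earlier results of these data known. The mark was present at 52 of the 67 in DDX5-/- cells and at 56 in wild-type cells, and RYBP at 51. The shares over all protein-coding genes, which stand beside each list below as well, were 23.6%, 27.9% and 37.6%. For the mark in both genotypes the share was 20.7%, and for a peak in all 3 libraries 15.7%. Of the 50 marked in both genotypes, 41 had a shorter cover in the knockout, where 78.6% of all genes marked in both did, and their median ratio was 0.886, compared with 0.718 over all those genes. All 7 kidney genes, which act with Pax2 and Pax8, were marked in both genotypes. Ret, the GDNF receptor, on chromosome 6, had 23166 bp in the knockout and 20717 bp in the wild type, Gata3 had 13721 and 17311 bp, and Wt1 had 11160 and 12757 bp. All 5 midbrain-hindbrain genes, which act with Pax2 and Pax5, were marked in all 3 libraries, with Fgf8 at 9969 bp in the knockout and 10260 bp in the wild type, En1 at 7679 and 8090 bp, and Wnt1 at 6686 and 7564 bp. All 8 islet genes, partners of Pax4 and Pax6 in the pancreas, were marked in both genotypes although Pax4 was not. Nkx2-2 had 11741 bp in the knockout and 15843 bp in the wild type, Pdx1 had 6516 and 9538 bp, and Nkx6-1 had 8155 and 8736 bp.

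Eye genes that act with Pax6 were marked at 6 of 8 members in the knockout and 7 in the wild type. Lhx2 had 20426 bp in the knockout and 22034 bp in the wild type, and Six3 15635 and 16459 bp. Mitf, the pigment cell regulator, had 657 bp in the wild type alone. Muscle and neural crest genes, targets or partners of Pax3 and Pax7, were marked at 7 of 8 members in the knockout and 8 in the wild type, with Sox10 at 11168 and 12420 bp, Tfap2a at 11526 and 11729 bp and Meox1 at 8028 and 5749 bp. Of the 7 marked in both, 4 had a shorter cover in the knockout. Met on chromosome 6 (1389 and 439 bp) and Foxd3 (1374 and 1209 bp), named after their values were seen, had a longer one, as Meox1 did. Myf5 had 707 bp in the wild type alone. Sclerotome, thymus and tooth genes, which act with Pax1 and Pax9, were marked at 7 of 9 members in the knockout and 8 in the wild type. Uncx had 7976 bp in the knockout and 8213 bp in the wild type, Msx1 7553 and 8074 bp, and Sox9 5269 and 6729 bp. Of the 7 marked in both, 5 had a shorter cover in the knockout. The other two, named after their values were seen, were Foxn1 with 7720 bp in the knockout and 2354 bp in the wild type, and Bmp4 with 2918 and 2031 bp, and the summed ratio of the list was 1.00. Tbx18 had 1219 bp in the wild type alone.

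Thyroid genes were marked at 4 of 7 members in the knockout and 3 in the wild type, with Nkx2-1 at 7518 bp in the knockout and 8575 bp in the wild type, Slc5a5 at 3980 and 5594 bp and Foxe1 at 5476 and 5295 bp. B cell genes, which follow Pax5, were marked at 4 of 8 members in the knockout and 6 in the wild type. Irf4 had 2431 bp in the knockout and 4224 bp in the wild type, Ebf1 3171 and 4136 bp, and Ikzf1 3418 and 2715 bp. Foxo1 had 912 bp in the knockout alone, while Tcf3 (2176 bp) and Blnk (1777 bp) had the mark in the wild type alone. Of 7 direct partners of Pax proteins, 4 were marked in both genotypes, against 20.7% of all protein-coding genes. Eya2 had 17761 bp in the knockout and 61019 bp in the wild type, and Six2 10152 and 12738 bp.

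The closest relatives by sequence, homeobox genes of the paired-like type that have no paired box, gave similar counts. The mark was present at 21 of 29 in the knockout and 24 in the wild type, and RYBP at 24. Over all protein-coding genes the shares were 23.6%, 27.9% and 37.6%. Of the 21 marked in both, 20 had a shorter cover in the knockout, with a median ratio of 0.837, where the values over all genes marked in both were 78.6% and 0.718. Pitx1, a hindlimb and pituitary regulator, had 15072 bp in the knockout and 15132 bp in the wild type, and Alx4 had 9523 and 15005 bp. Alx1 (2232 bp) and Esx1 (825 bp) were among the genes with wild-type peaks alone, and no gene of this list had knockout peaks alone. Some genes of this list, Otx2, Rax and Uncx among them, also stand in the network lists.

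**Figure D5:**
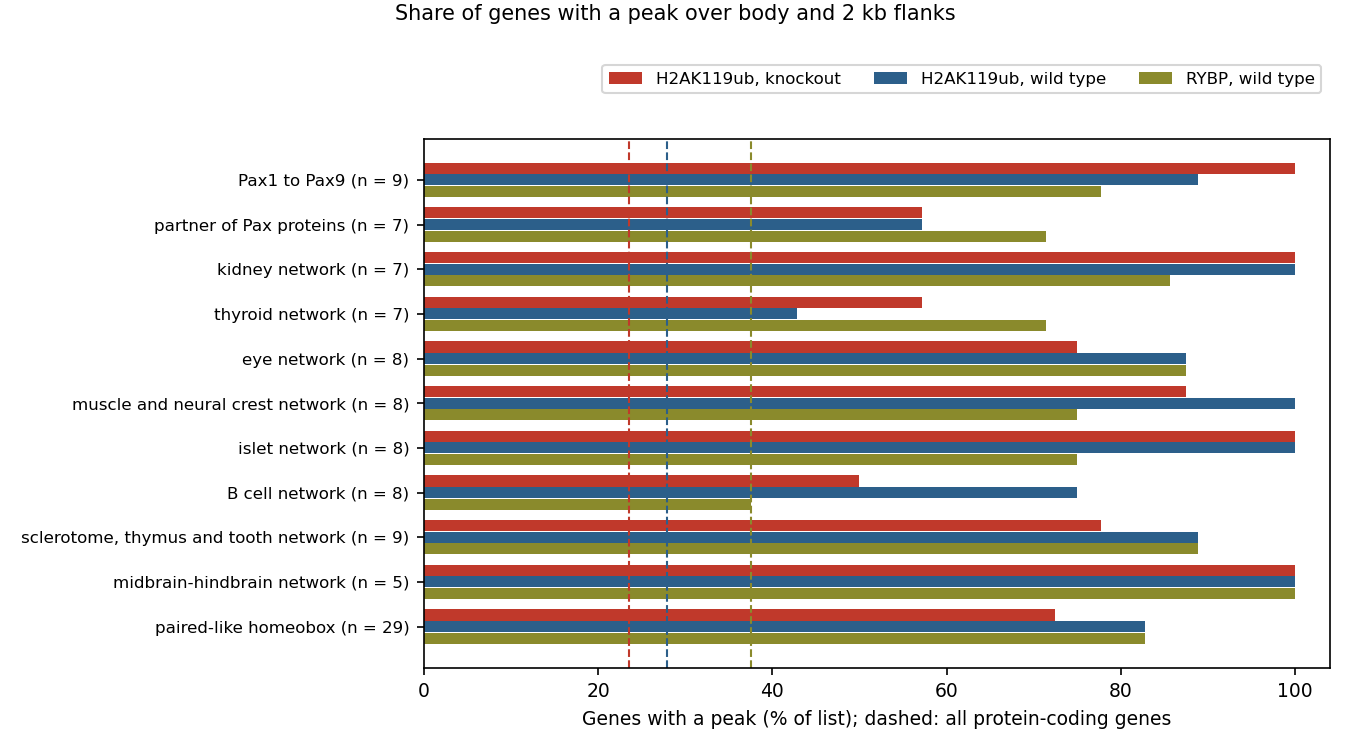
Share in percent of the Pax genes, of the 9 lists of partners and networks and of the paired-like homeobox genes that had a peak over the body and 2 kb flanks, in knockout H2AK119ub (red), wild-type H2AK119ub (blue) and wild-type RYBP (olive). Dashed lines are the shares over all protein-coding genes, 23.6%, 27.9% and 37.6%, and every bar but that of RYBP at B cell genes lies beyond its own line.

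Likeness to other genes was measured as the Euclidean distance, in percentage points, between the covered shares of the window in the 3 libraries, so that it rests on 3 values per gene. The nearest genes to Pax2 were Parp10 (0.581) and T (0.955), to Pax3 Acot7 (0.744) and Prkag2 (0.765), to Pax5 Kcnip3 (0.761) and Lyzl4 (1.05), and to Pax7 Mst1r (1.63) and Pear1 (2.26). Those nearest to Pax9 were Itpripl2 (0.432) and Hoxd1 (1.21), to Pax1 Mmp15 (3.99) and Lrfn4 (4.11), and to Pax6 Acta1 (3.06) and Cavin1 (3.33).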

How the data were processed

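Peaks of H2AK119ub in DDX5-/- and wild-type cells and of RYBP in wild-type cells were analysed, 1 library each, grouped by sample title. Bowtie2 2.2.5, MACS 1.4 and the build mm10 are named, per the submitters' processing notes. Threshold and control of the peak calling: not given in the sources used here. Each library has 1 peak list, deposited by the authors with positions only, and the score in the deposited files is 0 for every peak. Starts were converted to count from 1. Covered length, peak numbers and overlaps of at least 1 bp were computed with Python 3.11.15, pandas 2.3.3 and numpy 2.4.6, and Wilson intervals at 95% with scipy 1.17.1. A peak over windows of several genes counts for each. Genes, starts and sequences came from RefSeq GRCm38.p6, without exons. The interval arithmetic was tested on simulated data. The members and lists were chosen with earlier results of these data known. Named were all Pax genes, Ddx5, the marker lists, the 2 genes most like each member with peaks in all 3 libraries, the nearest coding neighbours, and in each list the members marked in 1 genotype alone and the 3 with the longest wild-type cover. Some of these are not reported here. Alternatives were other flanks, windows at gene ends, a 50% overlap, merged peaks, a minimum width, equal peak numbers and each Pax gene left out.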

Additional observations from a re-analysis of the deposited data

How the results depend on the processing

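The numbers of Pax genes with a peak stayed within 1.5 times of 9 in the knockout, 8 in the wild type and 7 with RYBP under every alternative run, and the ratio of summed H2AK119ub length stayed below 1, from 0.641 for peaks no narrower than 1 kb up to 0.859 in windows of 2 kb around the gene ends. Pax4 lost its knockout peak without a flank, with a flank of 1 kb and with a 50% overlap. With windows around the gene ends alone, the median covered length per gene was 3881 bp in the knockout, 4001 bp in the wild type and 1911 bp for RYBP, against 8103, 12187 and 7430 bp over the whole windows, since less sequence is counted, and the order of the genotypes at Pax5 and Pax7 turned, as given above. With peaks merged, Pax9 had 9517 bp in the knockout and 9476 bp in the wild type. With a flank of 5 kb the knockout cover of Pax8 rose from 1025 to 1781 bp, and its ratio was no longer the lowest. The number of wild-type peaks overlapped by a knockout peak, 49 of 74, was 13 of 15 with those windows, 21 of 37 with peaks merged within 2 kb and 31 of 49 without Pax7. The number overlapped by RYBP, 22 of 74, was 12 of 15, 11 of 37 after merging and 8 of 71 with a 50% overlap. Fewer peaks enter these counts by construction, and the 50% overlap also asks for more shared length. No paired analysis was possible because each group had 1 library and the labels give no replicate numbers. Unknown read depth limits every absent peak: a narrow peak missing from 1 list is not shown to be absent.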

Other observations

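Beyond the 2 kb flanks, the 100 kb on either side of the Pax genes differed widely in the mark. Around Pax7 a further 29521 bp was covered in the knockout and 68393 bp in the wild type, and around Pax2 28959 and 53674 bp. In the wild type these lengths were above those of the genes' own windows, and in the knockout below them. Around Pax1 only 259 bp in the knockout and 533 bp in the wild type lay beyond the window, and RYBP had none. No wild-type H2AK119ub at all was found within 100 kb of Pax4, where the knockout had 3417 bp and RYBP 3094 bp.

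Several noncoding genes of the same loci carried the mark, near a Pax start or far from one. Gm46873, a lncRNA next to the start of Pax7, had 12035 bp in the knockout and 14011 bp in the wild type, and Gm15524 at Pax9 had 6580 and 6892 bp. 1700039E22Rik, near the far end of Pax2, had 3333 and 4192 bp, and Gm42334, at the far end of Pax7, had 693 bp in the knockout alone. AI646519 at Pax1 was under RYBP over its whole length of 1253 bp. The microRNA genes Mir6405 within Pax2 and Mir5120 within Pax5 had no peak in any library.

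Of the 20 nearest or overlapping protein-coding neighbours, 11 had no H2AK119ub in either genotype, 55.0%, against 69.1% of all protein-coding genes. Elp4, which overlaps Pax6, Hif1an and Slf2 on either side of Pax2, and Melk and Zcchc7 on either side of Pax5 had no H2AK119ub in either genotype. Among the marked neighbours, Nkx2-2, 166.5 kb from Pax1, had 11741 bp in the knockout and 15843 bp in the wild type. Nkx2-9, 78.1 kb from Pax9, had none in the knockout and 1592 bp in the wild type, with 2141 bp of RYBP. Snd1 at Pax4 had 7010 bp in the knockout and 9452 bp in the wild type, Cacna1b at Pax8 had 6841 and 10673 bp, and Tas1r2 at Pax7 had 3438 and 6114 bp.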
